A study of Mus musculus with 24 samples.

Results

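Oxidative phosphorylation genes were taken by symbol from the protein-coding genes of the mouse annotation. Symbols starting with Nduf, Sdh, Uqcr, Cox4 to Cox8 or Atp5 gave 98 nuclear genes, and mt-Nd, mt-Co, mt-Cytb and mt-Atp gave 13 mitochondrially encoded genes. These 111 members stood among 54838 genes in the count table. After a filter on low counts, 91 nuclear and 11 mitochondrially encoded members were tested among 13116 genes.

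The RNA came from SIM-A9, an established line of mouse microglia, and 24 libraries formed 8 groups of 3. The study asked how microglia respond to probes used in neuroscience, with LPS, a bacterial cell wall component, as the inflammatory positive control. Besides untreated Control and LPS, cells received (GT)6 SWCNT or COOH SWCNT, single-walled carbon nanotubes that carry a short GT-repeat DNA or carboxyl groups. The remaining groups received the calcium indicator Fura-2, the voltage dyes DiBASC2 or Di-2-ANEPEQ, or AAV, the usual abbreviation for adeno-associated virus. Medium without serum (270 uL) replaced the growth medium for 2 h, after which 30 uL of each agent, 10 times concentrated, was left on for 2 h. RNA was taken from the cells that adhered, and poly-A RNA was enriched from it. Final doses are not in the labels used here, so groups were compared at the same exposure time only. Nothing in the labels says that the replicates were separate cultures, so p-values measure the spread between these libraries, which may be technical. The library numbers run in consecutive blocks of 3 by group, so library order and group cannot be told apart.

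The libraries held 17364272 to 29259221 counts. Nuclear members took 1.20 to 1.30% of the counts in the COOH SWCNT libraries and 1.41 to 1.46% in Control. Mitochondrially encoded members took 1.31 to 1.65% over all libraries. All 13 microglial markers passed the count filter, and together they reached 2651 to 2945 CPM (counts scaled to a common library size of 1e6) in every library. P2ry12 at 1.54 to 3.26 CPM, Tmem119 at 2.75 to 5.32 and Fcrls at 0.534 to 1.78, all markers of microglia in the brain, were low. No neuron, astrocyte or fibroblast marker on the lists passed the filter.

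Oxidative phosphorylation passes electrons from NADH and succinate through complexes I and II to coenzyme Q, then through complex III and cytochrome c to complex IV, which reduces oxygen. The protons pumped on the way drive ATP synthase, complex V. The mitochondrial genome encodes some subunits of complexes I, III, IV and V. The remaining subunits, complex II and the assembly factors come from nuclear genes, so both genomes supply each mixed complex. Macrophages and microglia are known to shift between oxidative phosphorylation and glycolysis when activated.

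The mitochondrially encoded members fell into abundant and nearly unmeasured genes. Levels between genes are given here as CPM per kb of exon in Control. mt-Co1, the catalytic subunit of complex IV, was at 4693, mt-Cytb of complex III at 2089 and the complex I subunit mt-Nd1 at 2000. The complex I subunits mt-Nd2, mt-Nd5, mt-Nd4 and mt-Nd6 followed at 797.9, 667.2, 599.5 and 423.6. The complex IV subunits mt-Co2 and mt-Co3 were at 9.28 and 5.43, mt-Atp6 of ATP synthase at 5.69 and mt-Nd3 at 1.16. mt-Nd4l never exceeded 4 counts and mt-Atp8 never exceeded 1, so neither was tested.

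Part of this sequence recurs in the nuclear genome. Of the 50-base words of each transcript, mt-Co2 shared 100% with another annotated transcript, mt-Co3 99.9%, mt-Atp6 99.5%, mt-Nd4l 98.8% and mt-Nd3 98.0%. mt-Nd4 shared 62.2%, mt-Co1 51.1%, mt-Nd2 8.19% and mt-Nd5 7.61%. The abundant mt-Nd1, mt-Nd6 and mt-Cytb and the nearly absent mt-Atp8 shared none. Copies outside annotated transcripts were not searched. Copies of mt-Co1, mt-Co2, mt-Atp6, mt-Co3, mt-Nd3, mt-Nd4l and mt-Nd4 lie side by side on the minus strand of chromosome 1. Some genes match further transcripts, whose positions are not given here. How the authors treated reads with several matches is not given in the sources used here, so the values of mt-Co2, mt-Co3, mt-Atp6 and mt-Nd3 are uncertain. The pseudogene Gm10925, which copies mt-Atp6, had 157 to 345 counts a library and equalled it in all 678 aligned bases. mt-Nd3 and its copy Gm28438 differed in 1 of 345 bases, T3C, counted from 1 at the first base of mt-Nd3. The first 60 bases of each pair are shown because a read from here cannot be placed by its letters, or by 1 letter alone. They are GENCODE M21 transcript sequence on GRCm38, mt-Atp6 at chrM:7927-7986 and mt-Nd3 at chrM:9459-9518 on the plus strand. Gm10925 is at chr1:24614592-24614651 and Gm28438 at chr1:24613060-24613119, both on the minus strand. Capitals mark the differing base.
mt-Atp6: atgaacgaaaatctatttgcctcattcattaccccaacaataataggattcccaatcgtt
Gm10925: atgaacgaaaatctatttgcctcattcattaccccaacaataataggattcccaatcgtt
mt-Nd3: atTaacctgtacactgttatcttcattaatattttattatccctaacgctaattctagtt
Gm28438: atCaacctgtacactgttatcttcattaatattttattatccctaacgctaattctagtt

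**Figure D1:**
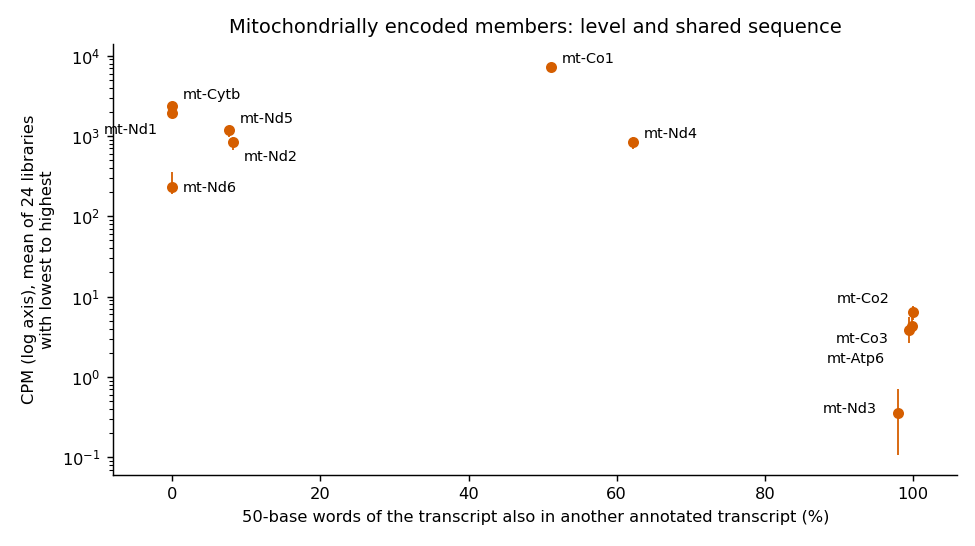
Level of 11 mitochondrially encoded members in CPM on a log axis (point, mean of 24 libraries; bar, lowest to highest) against the percent of their 50-base words also found in another annotated transcript. The 4 genes that share 98.0% or more sit lowest, while mt-Co1, which shares 51.1%, ranged from 6476 to 7991 CPM.

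Nuclear members covered a wide range, from 1.632 CPM per kb for Ndufb2, a complex I accessory subunit, to 712.4 for Cox7c, a small complex IV subunit, with a median of 113.3 in Control. The exons of Ndufb2 overlap those of Braf and other genes, so its level is uncertain. High levels per kb were found in each of complexes III to V, with Cox4i1 at 654.7, the ATP synthase beta subunit Atp5b at 617.9, Cox6c at 547.9 and the complex III subunit Uqcr10 at 521.1. Among tissue isoforms, the isoform genes Cox7a1 and Cox6a2 of heart and skeletal muscle were low, with 2.43 and 3.73 CPM in Control, while their counterparts Cox7a2 and Cox6a1 were at 298.6 and 220.8 CPM. The untested nuclear members were low or absent. Cox4i2, an oxygen-regulated isoform of Cox4i1, reached at most 5 counts, Ndufa4l2, a hypoxia-induced relative of Ndufa4, at most 1, and Cox7b2 at most 1. Cox6b2, Cox8b, Cox8c and a second gene model of Atp5o were at 0 counts in every library.

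Across the treatments, COOH SWCNT stood apart in the nuclear members. Relative to the mean of the Control libraries, the median nuclear member was at -0.28, -0.17 and -0.17 on the log2 scale in the 3 COOH SWCNT libraries, replicate 1 being the lowest. The Control libraries were at 0.03, -0.04 and 0.01, and no COOH SWCNT library overlapped them. LPS libraries were at -0.08, 0.07 and 0.11, Di-2-ANEPEQ at -0.07, -0.10 and -0.10, and AAV at -0.02, -0.11 and -0.05. The Di-2-ANEPEQ libraries were also all below Control, though less far than those of COOH SWCNT. Of the 91 tested nuclear members, 65 had their lowest group mean in COOH SWCNT and 39 had their highest in LPS. The same counts over all genes are not given here.

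**Figure D2:**
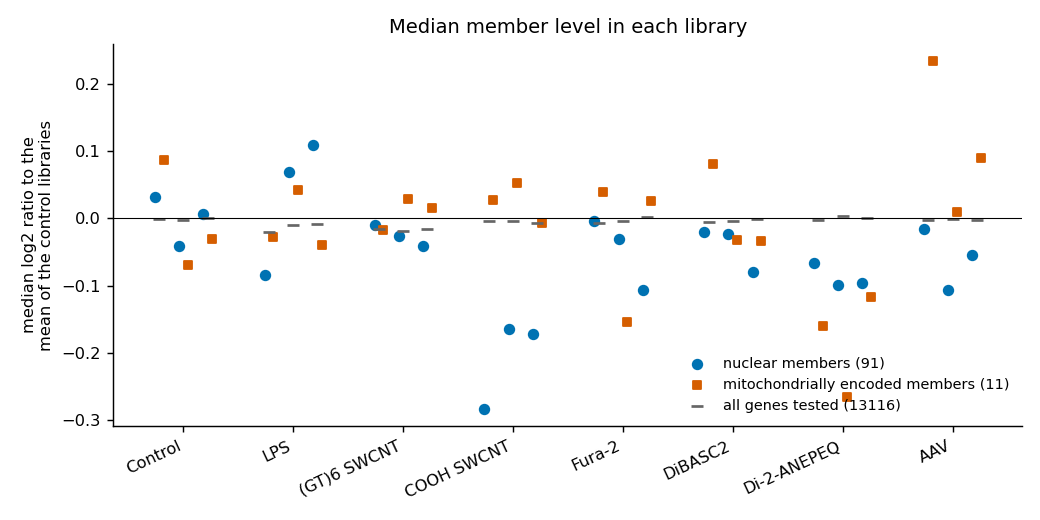
Median log2 ratio to the mean of the Control libraries in each of 24 libraries, for 91 nuclear members (circles), 11 mitochondrially encoded members (squares) and 13116 genes (dashes). The 3 COOH SWCNT circles, at -0.28 to -0.17, lie below all Control circles, and so do the 3 circles of Di-2-ANEPEQ. The 3 squares of Di-2-ANEPEQ, at -0.27 to -0.12, lie below the Control squares.

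COOH SWCNT was compared with Control first. In COOH SWCNT, 54 of 91 nuclear members were lower and none was higher (edgeR quasi-likelihood test, Benjamini-Hochberg adjusted p under 0.05), a share of 20.0% being called over all genes tested and 10.6% called lower. The median nuclear member was at a log2 fold change of -0.20, and 83 of 91 were below zero, while the median over all genes was close to zero. In 53 of the 54 called members no COOH SWCNT library overlapped a Control library, and the exception was Uqcrc2, a core protein of complex III. A call favours genes without overlap, and the same count over all called genes is not given here. In bulk RNA, fewer cells that hold an RNA and less of it per cell cannot be told apart. Without COOH SWCNT replicate 1, 38 members were called.

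The 3 lowest log2 fold changes were those of accessory subunits of complexes IV and V. Cox7b, a complex IV subunit at chrX:106015700-106022450, had 336, 312 and 358 CPM in Control and 191, 215 and 217 in COOH SWCNT. It fell by 0.69 on the log2 scale (SE 0.07, edgeR adjusted p 6.87e-10, n = 3 against 3), and every COOH SWCNT library was far below every Control library. Cox6c, a complex IV subunit at chr15:35925886-35938246, had 412, 377 and 424 CPM in Control and 229, 251 and 282 in COOH SWCNT. Its log2 fold change was -0.67 (SE 0.07, edgeR adjusted p 6.33e-10), again with no overlap. Atp5j2, subunit f of ATP synthase at chr5:145183698-145192062, had 205, 184 and 217 CPM against 116, 135 and 130, a log2 fold change of -0.67 (SE 0.07, edgeR adjusted p 4.1e-09). These 3 genes are on different chromosomes and encode subunits without catalytic activity.

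Other subunits were lower by smaller amounts. Ndufa5 of complex I was at 45.8 to 53.5 CPM in COOH SWCNT and 70.6 to 76.0 in Control, a log2 fold change of -0.58 (SE 0.06, edgeR adjusted p 7.31e-09). Ndufs4, a complex I subunit whose loss causes Leigh-like disease in mice, was at 75.5 to 89.5 CPM against 107.3 to 126.1, a log2 fold change of -0.52 (SE 0.06, edgeR adjusted p 1.05e-07). The hinge protein of complex III, Uqcrh, had a log2 fold change of -0.52 (SE 0.06, edgeR adjusted p 5.54e-08). Ndufa4, named for complex I but known as a complex IV subunit, had 220, 183 and 210 CPM in Control and 124, 147 and 165 in COOH SWCNT, a log2 fold change of -0.49. The complex IV subunits Cox7a2 and Cox7c were at -0.46 and -0.35, and the ATP synthase membrane subunits Atp5l and Atp5k at -0.52 and -0.47. Of these, 84.8% of the words of Atp5l and 53.0% of those of Cox7c recur in other transcripts, so both values are uncertain.

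A list of further subunits was followed whatever their values, and it held called and uncalled genes. Cox4i1, a regulatory subunit of complex IV, was at 401 to 451 CPM in COOH SWCNT and 487 to 510 in Control (log2 fold change -0.23, SE 0.05, edgeR adjusted p 0.00048). Sdhb, the iron-sulfur subunit of complex II, was at 175 to 192 against 211 to 220 CPM (log2 fold change -0.22, SE 0.04, edgeR adjusted p 0.000307). Cox7a2l, which joins complexes III and IV in supercomplexes, was at -0.27 (edgeR adjusted p 0.000579). The flavoprotein Sdha, partner of Sdhb, was at 392, 392 and 382 CPM in Control and 393, 412 and 407 in COOH SWCNT, with overlapping ranges and a log2 fold change of 0.05 (edgeR adjusted p 0.294). Atp5b was at 1177 to 1194 CPM in Control and 1110 to 1159 in COOH SWCNT, without overlap but not called (log2 fold change -0.05, SE 0.03, edgeR adjusted p 0.304). Atp5a1, the alpha subunit, was at -0.03. The NADH-binding and iron-sulfur subunits Ndufv1 and Ndufs1 of complex I were at -0.01 and -0.07, neither of them called. Also uncalled were the complex III core protein Uqcrc1 (-0.01) and Rieske protein Uqcrfs1 (-0.05), the complex IV subunits Cox5a (-0.02), Cox6a1 (-0.04), Cox6a2 (0.11) and Cox8a (0.00), and the c-ring gene Atp5g1 (-0.09).

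**Figure D3:**
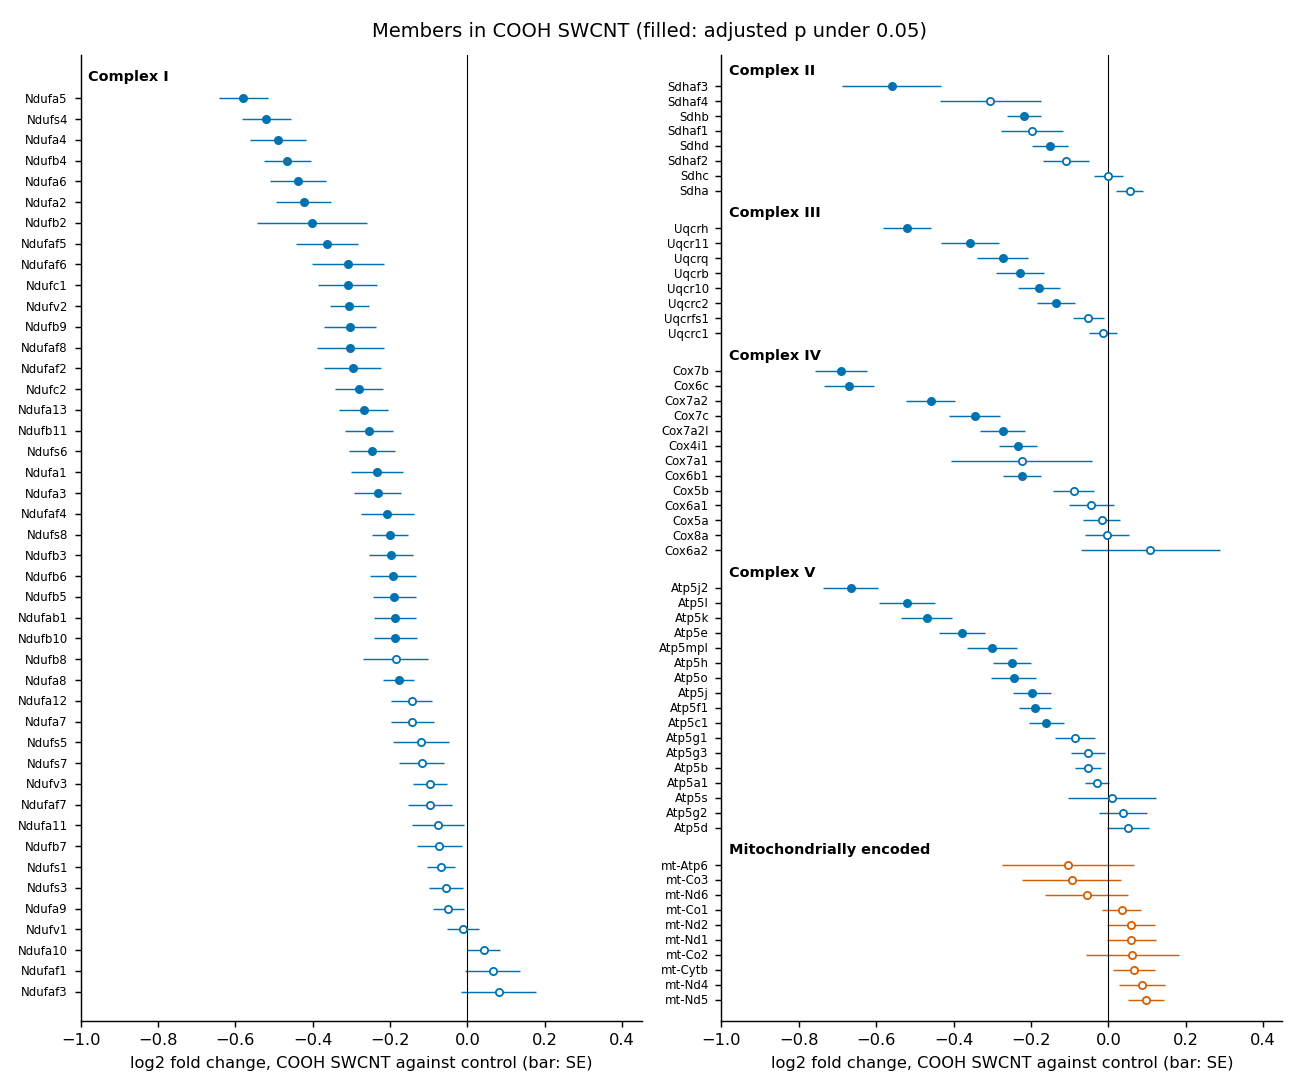
Log2 fold change of members in COOH SWCNT against Control, sorted within each complex (point, estimate; bar, SE; filled, adjusted p under 0.05; mt-Nd3, at 0.106 to 0.703 CPM, and 1 uncalled nuclear member are not drawn). Filled points lie to the left of zero in every complex, led by Cox7b at -0.69, and the mitochondrially encoded members are all open.

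The lower values spread over every complex. Complex I, the NADH dehydrogenase, had 28 of 45 nuclear members lower with a median log2 fold change of -0.20. Ndufa4, called lower, was counted there by its name and not with complex IV. Complex II had 3 of 8 lower (median -0.17), complex III 6 of 8 (-0.20), complex IV 7 of 13 (-0.22) and complex V 10 of 17 (-0.19). The conserved core of complex I had 2 of 7 lower, Ndufv2 at -0.31 and Ndufs8 at -0.20, with a median of -0.10. Its accessory subunits had 21 of 30 lower, with a median of -0.21. Assembly factors within the members, such as Sdhaf3 of complex II, had 6 of 12 lower (median -0.25). Among 57 members whose exons overlap no other gene, 35 were lower, and among 45 with under 1% of their words elsewhere, 26 were lower.

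Transcript length moved with these values. The tested nuclear members are short, with a median transcript of 908 bases against 2739 over all genes tested. Over all genes, those under 1000 bases also had a lower median in COOH SWCNT (-0.15, 306 of 1480 lower), whereas those of 4000 bases or more were at 0.05. Nuclear members under 1000 bases were at -0.23, with 34 of 49 lower. From 1000 to 2000 bases, 16 of 30 members were lower (median -0.15), beside 491 of 2886 genes (median -0.06). From 2000 to 4000 bases, 2 of 9 members were lower (median -0.07). Of the 3 members of 4000 bases or more, 2 were lower, Sdhaf3 at -0.56 and Ndufb2 at -0.40, which does not follow the order of the shorter classes. The Ndufb2 value is uncertain because its exons overlap other genes. With the trend on length and GC content removed in each library, 38 nuclear members were lower and 2 higher, Cox5a and Atp5g2 at 0.13 each, and 37 of the 54 calls were kept. The median nuclear member was then at -0.11, and 13.4% of all genes were called lower.

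**Figure D4:**
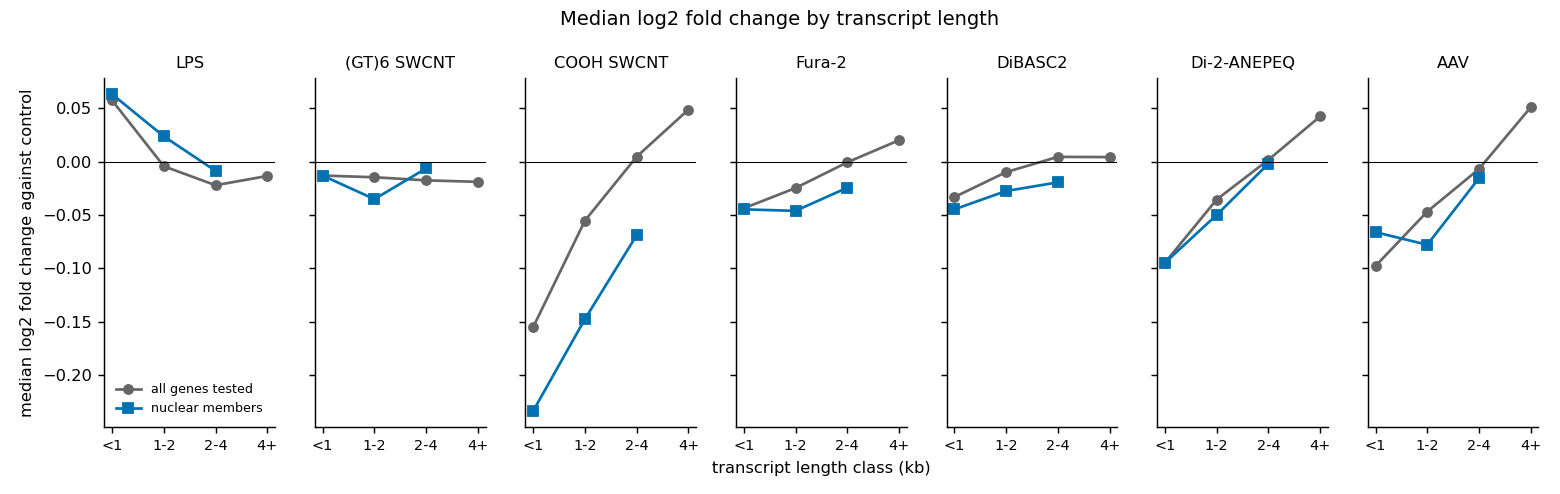
Median log2 fold change against Control by transcript length class in kb, for all genes tested (circles) and for nuclear members (squares), in each of the 7 treatments. In COOH SWCNT both lines start lowest in the shortest class, at -0.15 for all genes and -0.23 for members.

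The promoters of the members were examined because many of these genes were lower together. Of the tested nuclear members, 70 had a single RefSeq promoter window (250 bases before to 50 after the start). Matches of either strand were searched for the NRF1 core GCATGCGC, the ETS core CCGGAAG, the YY1 core AAGATGGC, the GC box GGGCGG and CCAAT, factors and elements known from respiratory gene promoters. The NRF1 core was in 17.1% of the 70 windows and in 2.71% of all 32851 windows, the ETS core in 28.6 and 8.86%, and the YY1 core in 12.9 and 2.75%. The GC box was in 47.1 and 35.7% and CCAAT in 44.3 and 37.4%. The 70 windows belong to genes that passed the count filter, which was not applied to the 32851, so the sets also differ in expression. Among the 41 members lower in COOH SWCNT, 19.5% had the NRF1 core and 31.7% the ETS core, beside 13.8 and 24.1% of the 29 that were not called. The YY1 core was in 14.6 and 10.3% and CCAAT in 48.8 and 37.9%. The GC box went the other way, with 43.9 and 51.7%. These shares rest on few windows, 8 and 4 for the NRF1 core, and their difference was not tested. Capitals mark matches in 4 windows, printed up to the start. Cox7b has a CCAAT match alone, the ATP synthase genes Atp5k and Atp5l were lower and hold the NRF1 core, and Cox6a1 holds NRF1, ETS, GC box and CCAAT matches and was not called. Thus the NRF1 core occurred beside called and uncalled genes. The windows are RefSeq sequence on GRCm38.p6, at chrX:106015450-106015699 (plus), chr5:108434400-108434649, chr9:44920743-44920992 and chr5:115348959-115349208 (minus), and were chosen after the values were seen. The core and its reverse complement overlap in the Atp5k and Cox6a1 matches.
Cox7b: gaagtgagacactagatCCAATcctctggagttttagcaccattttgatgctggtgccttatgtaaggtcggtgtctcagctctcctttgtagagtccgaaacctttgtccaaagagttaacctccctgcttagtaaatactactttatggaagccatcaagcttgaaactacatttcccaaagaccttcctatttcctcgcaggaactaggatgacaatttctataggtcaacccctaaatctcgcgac
Atp5k: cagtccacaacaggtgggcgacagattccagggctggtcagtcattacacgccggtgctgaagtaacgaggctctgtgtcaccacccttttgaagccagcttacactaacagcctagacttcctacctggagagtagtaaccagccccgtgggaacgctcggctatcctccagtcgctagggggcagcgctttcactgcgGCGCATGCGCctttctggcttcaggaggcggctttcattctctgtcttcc
Atp5l: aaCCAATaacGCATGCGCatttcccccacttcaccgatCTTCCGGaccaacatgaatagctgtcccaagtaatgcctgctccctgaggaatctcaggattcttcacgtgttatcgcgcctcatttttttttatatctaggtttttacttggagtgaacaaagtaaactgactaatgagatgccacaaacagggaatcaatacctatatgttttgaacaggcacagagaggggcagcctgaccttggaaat
Cox6a1: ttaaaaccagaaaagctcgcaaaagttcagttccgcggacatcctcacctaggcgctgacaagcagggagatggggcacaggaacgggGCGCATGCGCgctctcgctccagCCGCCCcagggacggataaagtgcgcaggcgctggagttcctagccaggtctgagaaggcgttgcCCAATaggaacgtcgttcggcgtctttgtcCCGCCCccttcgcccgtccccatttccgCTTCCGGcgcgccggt

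The mitochondrially encoded members in COOH SWCNT were close to Control. None of the 11 tested was called by edgeR, 1 had an unadjusted p under 0.05, and DESeq2 called 0. Their median log2 fold change was 0.06. mt-Co1 was at 7838, 6823 and 7093 CPM in Control and 7010, 7524 and 7746 in COOH SWCNT, with overlapping ranges. With the length and GC trend removed, 5 of these members were called, all higher, so this count rests on that choice.

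The nanotubes differed from each other. (GT)6 SWCNT against Control gave 3 lower nuclear members and none higher, with 20.4% of all genes called. Sdhaf3 was at 8.41, 7.75 and 9.08 CPM in Control and 5.34, 7.18 and 7.21 in (GT)6 SWCNT, a log2 fold change of -0.36 (SE 0.13, edgeR adjusted p 0.0386). The ranges did not overlap, but those of the other 2 genes did, Ndufs4 at -0.19 and the complex I core subunit Ndufv2 at -0.15. Leaving out single libraries moved this count from 0 to 7. With the length and GC trend removed it was 14, beside 23.4% of all genes called. No mitochondrially encoded member was called by edgeR or DESeq2, and 0 had an unadjusted p under 0.05.

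In the direct test of (GT)6 SWCNT against COOH SWCNT, 47 nuclear members were higher and none lower in (GT)6 SWCNT, beside 21.4% of all genes called and 11.9% called higher. The median nuclear difference was 0.17. Cox7b was at 310, 305 and 305 CPM in (GT)6 SWCNT, all above the COOH SWCNT libraries, a log2 difference of 0.56 (edgeR adjusted p 1.02e-07). Atp5j2 was at 194, 181 and 187 CPM with a difference of 0.56, and Cox6c at 357, 348 and 377 CPM with a difference of 0.51. Cox4i1 and Sdhb differed by 0.23 and 0.19. With the length and GC trend removed, 34 were higher and 1 lower. The labels name the coating, DNA or carboxyl groups, as the difference between the nanotubes, and doses were not given. In the mitochondrially encoded members, mt-Nd5, a proton-pumping subunit of complex I, was called, at 1131, 1187 and 1185 CPM in (GT)6 SWCNT beside 1314, 1308 and 1284 CPM for COOH SWCNT (log2 difference -0.16, SE 0.05, edgeR adjusted p 0.0124). Its groups did not overlap, and with the trend removed 4 members were lower.

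LPS changed few members although 28.3% of all genes were called. Of the nuclear members, 4 were higher and 1 lower, with a median log2 fold change of 0.03. Uqcrq, a small complex III subunit, was at 205, 195 and 219 CPM in Control and 221, 248 and 255 in LPS, without overlap (log2 fold change 0.23, SE 0.07, edgeR adjusted p 0.00683). Cox6c was at 428, 469 and 472 CPM in LPS, above all Control libraries (log2 fold change 0.18, SE 0.06, edgeR adjusted p 0.0376). Ndufv3, a complex I flavoprotein subunit, was at 64.5, 71.6 and 74.1 CPM against 80.6, 75.1 and 78.4, a log2 fold change of -0.15 (edgeR adjusted p 0.00885). Ndufc2 of complex I was at 0.16 with overlapping groups. Sdhaf1, a complex II assembly factor, was at 39.3, 47.4 and 45.4 CPM in LPS and 33.3, 30.3 and 31.7 in Control, a log2 fold change of 0.48. Of its 2490 exon bases, 1733 lie in an opposite-strand gene, E130208F15Rik, and strand use is not given in the sources used here, so the source of these reads is uncertain. Without LPS replicate 1, which had the lowest nuclear median of the LPS libraries, 21 nuclear members were called, and without Control replicate 2 there were 2. With the length and GC trend removed, 31.6% of all genes were called and 18.1% called lower. Of the nuclear members, 2 were then higher and 11 lower, with a median of -0.02, so the split did not keep its direction. None of the mitochondrially encoded members was called by edgeR or DESeq2, with 1 at an unadjusted p under 0.05. With the trend removed, 6 of them were called, all lower, and their median was -0.14.

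Against LPS, (GT)6 SWCNT had 15 nuclear members lower and 1 higher (21.6% of all genes called, 11.9% lower), led by Sdhaf1 at -0.53, Ndufa4 at -0.34 and Cox6c at -0.34. The higher member was Ndufaf7, a complex I assembly factor, at 0.16. Without LPS replicate 1 the count was 28, and without LPS replicate 2 it was 9. With the length and GC trend removed, 11 were higher and 10 lower, and 11 of the 16 calls were kept. COOH SWCNT against LPS had 56 lower and none higher (37.8% of all genes called, 19.7% lower), with a median of -0.22, and with the trend removed 6 were higher and 35 lower. Cox6c was at -0.85 (edgeR adjusted p 2.93e-13), Cox7b at -0.82 and Atp5j2 at -0.75. These tests share libraries with those against Control, and their values stand side by side only. Of the mitochondrially encoded members, mt-Co3 was called in COOH SWCNT against LPS (-0.40, SE 0.12, edgeR adjusted p 0.0097), at 4.21, 4.11 and 3.61 against 4.56, 5.47 and 5.66 CPM, with the sequence sharing given above. (GT)6 SWCNT against LPS gave 0 by edgeR and 0 at an unadjusted p under 0.05. With the trend removed, mt-Co3 was at -0.08 (edgeR adjusted p 0.682) and the calls were 8 higher in COOH SWCNT and 5 higher in (GT)6 SWCNT, each against LPS.

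Di-2-ANEPEQ and AAV, which share the Control libraries, each had more nuclear members lower than higher. In Di-2-ANEPEQ, 15 nuclear members were lower and 1 higher, beside 3.08% of all genes called and 2.39% called lower. Cox6c was at 309, 304 and 301 CPM, below every Control library (log2 fold change -0.41, edgeR adjusted p 0.000218). Cox7b, at 265, 242 and 264 CPM, had -0.38 (edgeR adjusted p 0.000765), and Cox7a2, at 239, 229 and 233 CPM, had -0.35. Sdha was at 424, 443 and 437 CPM, above every Control library, with a log2 fold change of 0.16 (SE 0.03, edgeR adjusted p 0.00573). Without Di-2-ANEPEQ replicate 2 its adjusted p was 0.0594, and leaving out single libraries gave 7 to 16 nuclear calls, with 7 without Control replicate 1 or 3 and 8 without Di-2-ANEPEQ replicate 2. Removal of the length and GC trend gave 5 higher and 11 lower, and 12 of the 16 calls were kept.

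AAV had 16 nuclear members lower and 1 higher, beside 5.00% of all genes called and 3.16% called lower. Cox6c was at 328, 274 and 310 CPM (log2 fold change -0.41, edgeR adjusted p 0.000163), and the complex I subunit Ndufb4 was at 48.5, 47.3 and 48.5 against 62.4, 62.8 and 65.1 CPM (log2 fold change -0.40, edgeR adjusted p 0.000111). Of the words of Ndufb4, 37.0% recur in other transcripts. Cox7a2 was at 243, 214 and 232 CPM, below its Control range of 280 to 309, with -0.38. Ndufb2 had the lowest value, -0.58 (SE 0.14, edgeR adjusted p 0.0123), at 5.74, 4.25 and 4.23 against 7.25, 6.72 and 7.42 CPM. Its exons overlap those of Braf and other genes, which makes this value uncertain. Sdha was at 428, 425 and 425 CPM, with a log2 fold change of 0.13 (SE 0.03, edgeR adjusted p 0.0227), a call lost without Control replicate 1 or 3 or AAV replicate 2. Nuclear calls numbered 4 without AAV replicate 2, 5 without Control replicate 3, 7 without AAV replicate 3 and 8 without Control replicate 1. Removal of that trend gave 7 higher and 8 lower, and 9 of the 17 calls were kept. Short genes in general moved the same way in both groups: genes under 1000 bases had a median of -0.09 in Di-2-ANEPEQ and -0.10 in AAV, beside -0.09 and -0.07 for members of that length.

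Fura-2 and DiBASC2 changed few members. Fura-2 called 1 nuclear member, Cox6c, at 354, 326 and 295 CPM (log2 fold change -0.32, SE 0.06, edgeR adjusted p 0.0233), with 0.252% of all genes called. All 3 values were below the lowest Control library at 377, but the call was lost in 4 of 6 fits without a single library. DiBASC2, with 5.47% of all genes called, had 2 lower. They were Cox6c (359, 367 and 315 CPM, log2 fold change -0.22, edgeR adjusted p 0.0367) and the complex I assembly factor Ndufaf6 (11.7, 12.1 and 11.6 against 15.5, 14.6 and 14.2 CPM, log2 fold change -0.32). Both calls were lost with upper-quartile scaling, without Control replicate 1 and without DiBASC2 replicate 3. Neither dye changed a mitochondrially encoded member by edgeR or DESeq2, and 0 had an unadjusted p under 0.05 with either dye. Beside these values, the log2 fold change of Cox6c was -0.67 in COOH SWCNT, -0.41 in Di-2-ANEPEQ, -0.41 in AAV, -0.16 in (GT)6 SWCNT (edgeR adjusted p 0.0701) and 0.18 in LPS. All 7 comparisons share the Control libraries.

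**Figure D5:**
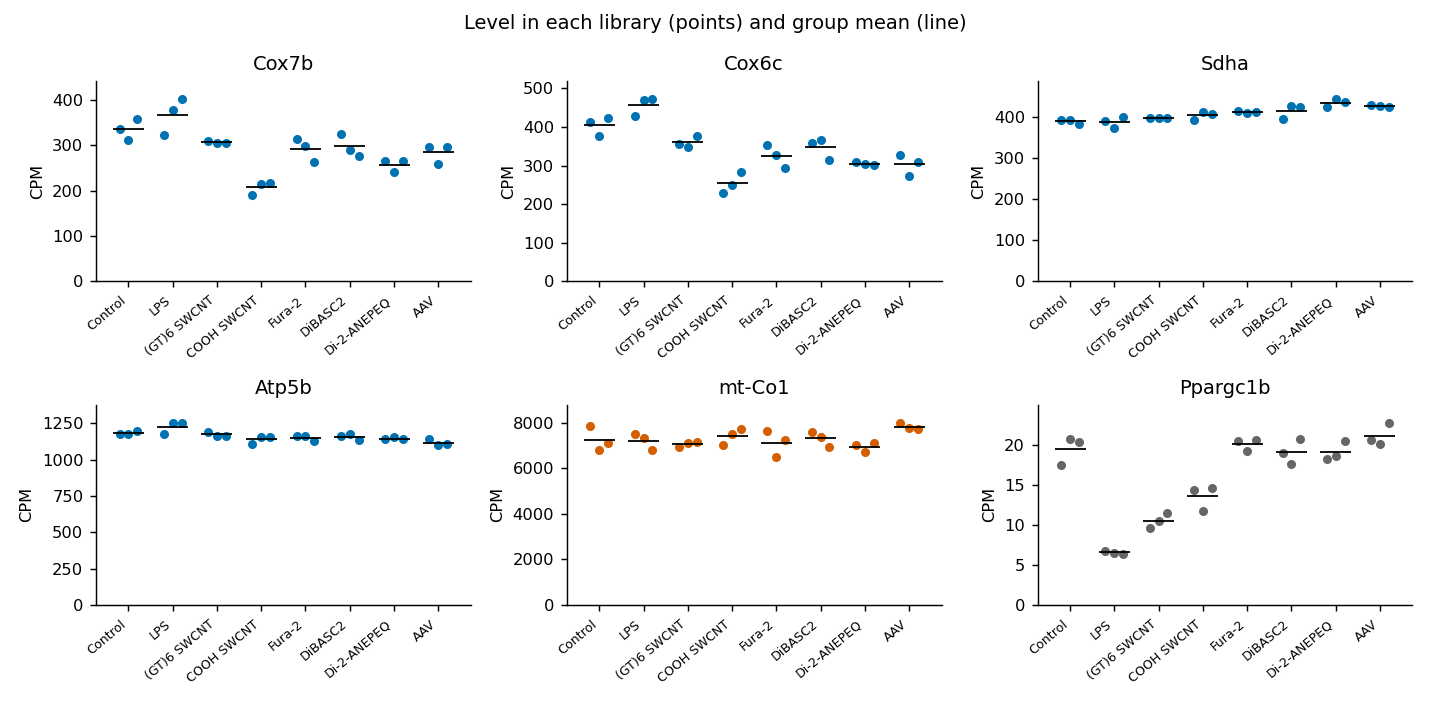
CPM of 5 members and the regulator Ppargc1b in each library (points), with the group mean (line) and axes from 0. Cox7b and Cox6c are lowest in COOH SWCNT, Sdha and Atp5b vary little (373 to 443 CPM for Sdha), and Ppargc1b is lowest in LPS at 6.41 to 6.79 CPM.

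The mitochondrially encoded members were followed over the 24 libraries. mt-Co1 ranged from 6476 to 7991 CPM, mt-Cytb from 2015 to 2650, mt-Nd1 from 1661 to 2311, mt-Nd2 from 678 to 974 and mt-Nd6 from 190 to 355. In Di-2-ANEPEQ all 11 tested were below zero, with a median of -0.21, but 1 was called and 8 had an unadjusted p under 0.05. That gene, mt-Nd5, was at 1289, 1171 and 1191 CPM in Control and 1052, 985 and 1097 in Di-2-ANEPEQ, without overlap. Its log2 fold change was -0.22 (SE 0.05, edgeR adjusted p 0.00467), and the call was lost without Control replicate 1, without Di-2-ANEPEQ replicate 2 and with the length and GC trend removed. In AAV, mt-Nd4 and mt-Nd6 of complex I were higher and the median was 0.11. mt-Nd4 was at 977, 925 and 963 CPM against 877, 794 and 807 (log2 fold change 0.21, SE 0.06, edgeR adjusted p 0.0346), with 62.2% of its words shared. mt-Nd6, the subunit encoded on the other strand of the mitochondrial genome, was at 355, 216 and 287 against 252, 190 and 218 CPM, with overlapping groups (log2 fold change 0.38, edgeR adjusted p 0.0321). DESeq2 called neither, and with the trend removed 6 members were called, all higher.

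Other genes of the pathway were counted from lists, to be read beside the share of all genes called. That share was 28.3% in LPS, 20.4% in (GT)6 SWCNT, 20.0% in COOH SWCNT (10.6% lower), 5.47% in DiBASC2, 5.00% in AAV, 3.08% in Di-2-ANEPEQ and 0.252% in Fura-2. Of 39 assembly factors and cytochrome c genes, 11 were lower and 1 higher in COOH SWCNT, 3 higher and 5 lower in LPS (20.5% of the list, under the share of all genes), 2 lower in (GT)6 SWCNT, 4 lower in Di-2-ANEPEQ, and 4 lower and 1 higher in AAV. Fura-2 and DiBASC2 had none by edgeR, with 7 and 6 at an unadjusted p under 0.05. Cox17, a copper chaperone of complex IV, was the highest of the list in LPS, with 9.61 CPM against 5.85 in Control (log2 fold change 0.72, SE 0.14, edgeR adjusted p 0.000127). Tmem126b, a complex I assembly factor, was lower in LPS (-0.41) and COOH SWCNT (-0.50). Cycs, the electron carrier between complexes III and IV, was at 348, 316 and 337 CPM in Control, 366, 414 and 418 in LPS and 252, 275 and 275 in COOH SWCNT. It was higher in LPS (log2 fold change 0.26, edgeR adjusted p 0.000423) and lower in COOH SWCNT (-0.32, edgeR adjusted p 7.83e-05), without overlap in either. Of 77 mitochondrial ribosomal protein genes, 38 (49.4%) were lower and 1 higher in COOH SWCNT (median -0.16), 15 lower in AAV, 12 in Di-2-ANEPEQ and 4 in DiBASC2. LPS had 4 higher and 8 lower of them, (GT)6 SWCNT 5 and 4, and Fura-2 none by edgeR, with 17 at an unadjusted p under 0.05. Of 26 genes of mitochondrial transcription and RNA handling, 6 (23.1%) were lower and 2 higher in COOH SWCNT, and 3 higher and 2 lower in LPS. The other treatments had lower members alone, 4 in (GT)6 SWCNT, 1 in Fura-2 and 3 in each of DiBASC2, Di-2-ANEPEQ and AAV. Slirp, which stabilises mitochondrial mRNA with Lrpprc, was at 68.4, 75.1 and 80.8 CPM in COOH SWCNT and 123, 117 and 132 in Control (log2 fold change -0.73, edgeR adjusted p 1.82e-10). Tfam, the factor that packages and transcribes mitochondrial DNA, had a log2 fold change of -0.29 in COOH SWCNT (edgeR adjusted p 0.000113), and the mitochondrial RNA polymerase Polrmt had -0.05 (edgeR adjusted p 0.615).

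Regulators of respiratory genes had the most calls in LPS, which had the most calls over all genes too. Of 13 tested, 5 were higher and 3 lower in LPS, 2 and 2 in each of (GT)6 SWCNT and COOH SWCNT, 1 higher in AAV and none in Fura-2, DiBASC2 or Di-2-ANEPEQ by edgeR (0, 4 and 1 at an unadjusted p under 0.05). Ppargc1b, a coactivator of mitochondrial biogenesis, was at 17.4, 20.7 and 20.3 CPM in Control and 6.79, 6.54 and 6.41 in LPS, far below (log2 fold change -1.57, SE 0.10, edgeR adjusted p 7.18e-16). It was at 9.65, 10.5 and 11.4 CPM in (GT)6 SWCNT (-0.90, edgeR adjusted p 4.61e-10), beside 14.3, 11.8 and 14.6 in COOH SWCNT (-0.52, edgeR adjusted p 2.03e-05), with no overlap with Control. Its difference between the nanotubes was also called (-0.38 for (GT)6 SWCNT against COOH SWCNT, edgeR adjusted p 0.00257). Beside these values, the median nuclear member was at a log2 fold change of -0.20 in COOH SWCNT, -0.03 in (GT)6 SWCNT and 0.03 in LPS. Whether Ppargc1b bears on the members was not tested. Ppargc1a, a relative of Ppargc1b, was at 0 counts in every library. Pprc1, the third coactivator of this family, was at 0.15 in LPS (edgeR adjusted p 0.0144) and 0.12 in COOH SWCNT (edgeR adjusted p 0.0776). Nrf1, the factor whose core motif is printed above, was at -0.11 in COOH SWCNT (edgeR adjusted p 0.0987). The corepressor Nrip1 was at -0.56 in LPS and -0.49 in (GT)6 SWCNT, both called. Hif1a, the hypoxia factor, was higher in (GT)6 SWCNT (0.34), LPS (0.28) and COOH SWCNT (0.20).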

How the data were processed

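The authors deposited a table of raw read counts per gene, whole numbers that sum to 17364272 to 29259221 a library. STAR 2.5.4b and the build GRCm38.p6 are named in the submitters' processing notes, and the counting tool, strand setting and treatment of multiply matching reads are not given in the sources used here. Symbols, types, lengths and GC content came from GENCODE M21 (54809 of 54838 identifiers matched). Counts were tested with edgeR 4.0.16 (R 4.3.3; TMM factors, filterByExpr, quasi-likelihood, all 24 libraries in a shared model, two-sided, Benjamini-Hochberg over 13116 genes, threshold 0.05), after a check on simulated data. Log2 fold changes carry standard errors, and CPM uses TMM-scaled library sizes. Alternatives used DESeq2 1.42.0, other scalings and filters, single libraries left out, and mgcv 1.9.3 for the length and GC trend. Matched replicate numbers did not pair the samples. The members and lists were chosen with earlier results of these data known. Named were the mitochondrially encoded members, a preset list of subunits and regulators, and per treatment the 3 highest and 3 lowest called nuclear members of at least 5 CPM without overlap. Further genes were chosen after their values were seen. Some results are not reported here.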

Additional observations from a re-analysis of the deposited data

Results flagged for a closer look

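Direct tests between treatments gave differences in the members' response. (GT)6 SWCNT and COOH SWCNT differed in 47 nuclear members and in 1 mitochondrially encoded member, mt-Nd5. (GT)6 SWCNT and LPS differed in 16 nuclear members. COOH SWCNT and LPS differed in 56 nuclear members and in 1 mitochondrially encoded member, mt-Co3. All are counts of genes at an edgeR adjusted p under 0.05.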

How the results depend on the processing

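Some medians and splits of calls changed direction with the length and GC trend removed. The median nuclear log2 fold change went from 0.03 to -0.02 in LPS and from -0.07 to 0.01 in AAV. The counts of nuclear members called in COOH SWCNT against Control stayed within 1.5 times of 54 (38 to 55 with a library left out). The following counts moved by more, and the cause was not tested. With DESeq2 size factors, LPS called 8 nuclear members. With upper-quartile scaling, (GT)6 SWCNT called 5 nuclear, DiBASC2 1 (higher), and mitochondrially encoded calls were 2 in Di-2-ANEPEQ and 4 in COOH SWCNT against LPS. Without the count filter, nuclear calls were 11 in LPS, 9 in (GT)6 SWCNT, 13 in Fura-2 and 7 in DiBASC2. Mitochondrially encoded calls were then 4 in Di-2-ANEPEQ, 5 in AAV, 2 in (GT)6 SWCNT against COOH SWCNT, 1 in (GT)6 SWCNT against LPS and 5 in COOH SWCNT against LPS. With a mean count of at least 50, LPS called 1 mitochondrially encoded member. With the replicate block, DiBASC2 called 1 nuclear and Di-2-ANEPEQ 2 mitochondrially encoded members, while COOH SWCNT called 53 nuclear members. Same-numbered libraries correlated at -0.104 to 0.0696 in their deviations, so the numbers did not pair them.

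With the length and GC trend removed, nuclear calls were 13 in LPS (2 higher, 11 lower), 14 in (GT)6 SWCNT, 3 in Fura-2 and 7 in DiBASC2, and split into 5 higher and 11 lower in Di-2-ANEPEQ, 7 and 8 in AAV, 11 and 10 in (GT)6 SWCNT against LPS, and 6 and 35 in COOH SWCNT against LPS. Mitochondrially encoded calls were then 6 in LPS, 5 in COOH SWCNT, 0 in Di-2-ANEPEQ, 6 in AAV, 4 in (GT)6 SWCNT against COOH SWCNT, 5 in (GT)6 SWCNT against LPS and 8 in COOH SWCNT against LPS. By the DESeq2 test, (GT)6 SWCNT called 1 nuclear member, Fura-2 2, DiBASC2 1, and AAV 0 mitochondrially encoded. With the 2 compared groups alone in the fit, nuclear calls were 10 in (GT)6 SWCNT, 5 in Fura-2, 5 in DiBASC2 and 27 in Di-2-ANEPEQ, which called 3 mitochondrially encoded members. The share of all genes called is not given here for this fit or for the fit without the count filter.

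Leaving out each library gave nuclear calls of 2 to 21 in LPS, 0 to 7 in (GT)6 SWCNT, 0 to 4 in Fura-2, 0 to 3 in DiBASC2, 7 to 16 in Di-2-ANEPEQ, 4 to 18 in AAV, 34 to 48 in (GT)6 SWCNT against COOH SWCNT, 9 to 28 in (GT)6 SWCNT against LPS and 46 to 65 in COOH SWCNT against LPS. Mitochondrially encoded calls ranged from 0 to 1 in LPS, 0 to 2 in Di-2-ANEPEQ, 0 to 2 in AAV, 0 to 1 in (GT)6 SWCNT against COOH SWCNT and 0 to 2 in COOH SWCNT against LPS. In (GT)6 SWCNT the count was 0 without Control replicate 1 or 3 or (GT)6 SWCNT replicate 1, and 7 without Control replicate 2 or (GT)6 SWCNT replicate 3. Of the members named in COOH SWCNT, Cox7b, Cox6c, Atp5j2, Ndufa4, Sdhb, Cox4i1 and Cox7a2l were called in every alternative run. Levels of mt-Co2, mt-Co3, mt-Atp6 and mt-Nd3 rest on how shared reads were counted, and 3 libraries a group limit the precision of every value.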
